A study of Homo sapiens with 7 samples.

Results

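The Hedgehog pathway genes described here were 9 members, namely SMO, PTCH1, GLI1, GLI2, GLI3, SUFU, KIF7, GPR161 and HHIP, found by gene symbol among the 25702 genes of the count table. The set was selected on these data: SMO was chosen by its higher counts in dasatinib resistant (DasR) K562 lines, and the other members were added as its receptor, partners and effectors. The difference between SMO in DasR lines and in controls is therefore given as a description without a test. K562 is an established BCR::ABL1-expressing line from a patient with chronic myeloid leukemia in blast crisis, and dasatinib is a tyrosine kinase inhibitor (TKI) of BCR::ABL1. RNA was sequenced from 7 lines, with 1 library each: a drug naive line, a line kept in the dimethyl sulfoxide (DMSO) vehicle, and intermediates resistant to 10, 15, 25, 50 and 200 nM dasatinib. The control group held the drug naive and DMSO lines (n = 2), the early stage group the intermediates at 10, 15 and 25 nM (n = 3), and the late stage group those at 50 and 200 nM (n = 2). No line had a repeat library, and the DasR lines were steps of the same dose escalation, so the spread within a group is a spread between related lines at different doses. The study formed the groups by clustering these same libraries, so p-values between groups are smaller than they would be for groups set without the data. Library totals reached 21007761 counts for the drug naive line, 24037893 for the DMSO line, and 27808639, 27844799, 20059656, 20827519 and 21588772 for the intermediates at 10, 15, 25, 50 and 200 nM.

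Hedgehog ligands (SHH, IHH and DHH) bind the receptor Patched (PTCH1), which otherwise holds the seven-pass membrane protein Smoothened (SMO) inactive. Free SMO gathers in the primary cilium and turns the GLI factors from repressors into activators of transcription, a step restrained by SUFU, KIF7 and the ciliary receptor GPR161. GLI1, PTCH1 and HHIP are themselves GLI targets in many tissues and are commonly read as measures of pathway output.

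Since PTCH1 is a target of GLI factors, the promoter windows of the receptor pair are shown before their expression values. Each window covers 250 bases before and 50 bases after an annotated start (RefSeq, GRCh38.p14, read 5′ to 3′ on the strand of the gene). The PTCH1 window is chr9:95509217-95509516 on the minus strand and the SMO window is chr7:129188383-129188682 on the plus strand. Capitals mark an exact match to the GLI motif GACCACCCA or, on the other strand, TGGGTGGTC.
PTCH1: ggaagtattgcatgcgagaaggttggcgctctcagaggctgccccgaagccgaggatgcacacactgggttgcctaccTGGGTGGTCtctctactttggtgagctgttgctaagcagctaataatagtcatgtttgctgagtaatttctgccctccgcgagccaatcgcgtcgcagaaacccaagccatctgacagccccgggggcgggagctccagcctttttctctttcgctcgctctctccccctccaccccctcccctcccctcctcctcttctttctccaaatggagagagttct
SMO: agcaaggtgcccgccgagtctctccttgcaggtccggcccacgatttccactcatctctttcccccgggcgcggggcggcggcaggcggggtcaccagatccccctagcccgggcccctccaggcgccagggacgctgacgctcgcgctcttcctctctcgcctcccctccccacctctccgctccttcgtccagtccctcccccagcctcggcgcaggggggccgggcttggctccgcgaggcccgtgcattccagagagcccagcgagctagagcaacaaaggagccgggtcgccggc
The PTCH1 match lies at bases 79 to 87 of the window and begins 172 bases before the annotated start. It was the only match in the 16 windows of the 7 members that the table lists, and the other 4 PTCH1 windows held none. Of 35116 windows of all genes, 0.236% held the motif. A match describes letters in the window and is no measurement of binding.

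SMO (NCBI gene 6608, hg19 chr7:128828474-128853386, plus strand) was close to undetected in the control lines and was counted in every DasR line. Levels are given as counts per 1000000 counts of the library (CPM). In bulk RNA, a larger share of cells of a type and more RNA per cell cannot be told apart. SMO stood at 0.286 CPM in the drug naive line and 0.166 CPM in the DMSO line, which were 6 and 4 counts. In the 10, 15 and 25 nM DasR lines it stood at 21.1, 26.1 and 15.3 CPM, and in the 50 and 200 nM DasR lines at 10.3 and 5.37 CPM. Every DasR line was above both controls, the 15 nM line was highest, and both late stage lines were below every early stage line. Mean SMO was 0.226 ± 0.0843 CPM (SD, n = 2) in controls, 20.8 ± 5.39 CPM (SD, n = 3) in the early stage and 7.85 ± 3.5 CPM (SD, n = 2) in the late stage. These means were 92.2 times the control mean in the early stage and 34.7 times in the late stage. The fitted log2 fold change was 6.50 (SE 0.51) in the early stage and 5.12 (SE 0.52) in the late stage. Of 14899 genes tested, 36 had a larger log2 fold change than SMO in the early stage, and 27 did so in the late stage. The fitted difference of the late stage from the early stage was a log2 fold change of -1.38 (SE 0.34), also given without a test, since the values of the DasR lines entered the choice of SMO. For the other genes, tests are by edgeR's quasi-likelihood fit with Benjamini-Hochberg adjustment over all genes tested (FDR), at a threshold of 0.005, the FDR that the study used.

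**Figure D1:**
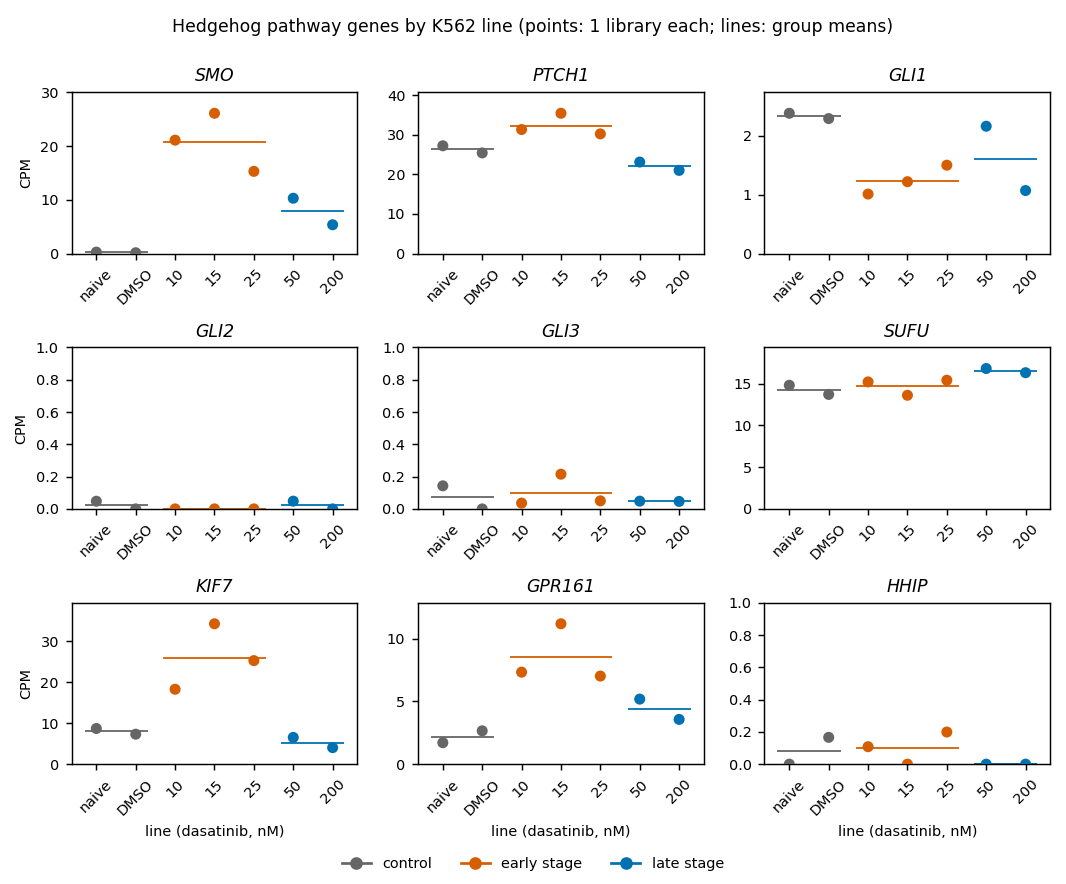
CPM of each of the 9 Hedgehog pathway genes (vertical axis, from 0, scaled per gene) in the 7 K562 lines (horizontal axis, dasatinib in nM). Each point is 1 library and each horizontal line a group mean. SMO is near 0 in both controls and highest at 15 nM, KIF7 and GPR161 also peak at 15 nM, PTCH1 and SUFU span narrow ranges, and GLI2, GLI3 and HHIP stay at or below 0.215 CPM.

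The genes nearest to SMO on chromosome 7 were examined to place it in its neighborhood. TSPAN33, a tetraspanin gene that ends 18.9 kb before SMO begins, showed a similar pattern in the early stage. TSPAN33 stood at 0.762 and 0.832 CPM in the drug naive and DMSO lines, at 21.4, 47.8 and 28.1 CPM in the 10, 15 and 25 nM lines, and at 4.47 and 2.36 CPM in the 50 and 200 nM lines. All DasR lines were above both controls and the groups did not overlap. The log2 fold change was 5.32 in the early stage (edgeR FDR 0.000538) and 2.10 in the late stage (FDR 0.0219), and the late stage was lower than the early stage by a log2 fold change of -3.22 (FDR 0.0172). Both controls were below 1 CPM, so TSPAN33 passed the filter only through the DasR lines, and its FDRs are descriptive. AHCYL2, which begins 11.5 kb after SMO ends, stood at 29.9 and 24.8 CPM in controls and between 36.3 and 41.5 CPM in the DasR lines. Its log2 fold change was 0.53 in the early stage (FDR 0.0127) and 0.43 in the late stage (FDR 0.0488), neither past the threshold.

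Of the 20 counted genes nearest to SMO, 10 on each side over 1468.3 kb, 16 were tested. In the early stage TSPAN33, ZC3HC1 (log2 fold change 1.06) and KLHDC10 (1.05) rose, and FLNC (-0.73), KCP (-3.66) and STRIP2 (-0.82) fell, or 3 each way of 16, beside 6.32% higher and 7.95% lower of all genes tested. Of these, TSPAN33 passed the filter only through the DasR lines and KCP only through the controls, where each was high, so both calls are descriptive. The nuclear import receptor gene TNPO3 fell in the late stage (log2 fold change -0.79, FDR 0.0028). CALU, OPN1SW, CCDC136, ATP6V1F, TPI1P2, AHCYL2, NRF1, UBE2H and TMEM209 did not pass the threshold in either stage, and IRF5 and the microRNA genes MIR182, MIR96 and MIR183 were too low to test. The median log2 fold change of the 16 genes was 0.08 (early stage) and -0.09 (late stage), beside -0.01 in each stage for all genes tested.

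**Figure D2:**
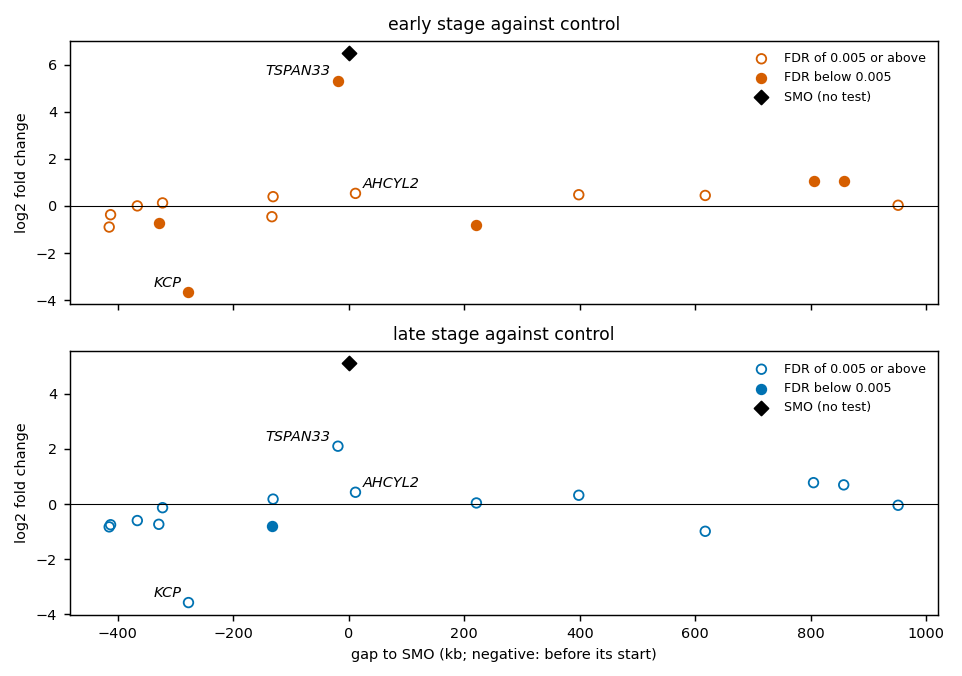
Fitted log2 fold change against control (vertical axis) of the 16 tested genes nearest to SMO, by their gap to SMO in kb (horizontal axis, negative before its start), in the early stage (top) and the late stage (bottom). Filled circles have an FDR below 0.005 and the black diamond is SMO, shown without a test. TSPAN33 at 5.32 is the neighbor closest in size to SMO in the early stage.

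Among the receptors, PTCH1 (gene 5727, hg19 chr9:98205262-98279339, minus strand) differed little between lines. PTCH1 stood at 27.2 and 25.4 CPM in the drug naive and DMSO lines, at 31.3, 35.4 and 30.2 CPM in the 10, 15 and 25 nM lines, and at 23.1 and 21.0 CPM in the 50 and 200 nM lines. All early stage lines were above both controls and both late stage lines were below them. The log2 fold change was 0.28 (SE 0.12, FDR 0.0985) in the early stage and -0.24 (SE 0.13, FDR 0.201) in the late stage, and neither passed the threshold. Against the early stage, the late stage differed by -0.52 (SE 0.12, FDR 0.0365). HHIP (gene 64399), a membrane protein that sequesters Hedgehog ligands, had 4 counts in the DMSO line, 3 in the 10 nM line, 4 in the 25 nM line and 0 in the other lines. A count of 0 allows up to 3 counts, or between 0.108 and 0.144 CPM in those lines, counting error only, so no difference in HHIP was detectable at this depth.

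GPR161 and KIF7, both restraints on GLI activation, had the largest early stage changes against control after SMO. GPR161 (gene 23432, hg19 chr1:168048780-168106905, minus strand), a G protein-coupled receptor of the cilium that keeps protein kinase A signaling high, stood at 1.71 and 2.66 CPM in the drug naive and DMSO lines. It stood at 7.34, 11.2 and 7.03 CPM in the 10, 15 and 25 nM lines and at 5.19 and 3.57 CPM in the 50 and 200 nM lines. As for SMO, every DasR line was above both controls, the 15 nM line was highest and both late stage lines were below every early stage line. GPR161 rose in the early stage by a log2 fold change of 1.94 (SE 0.33, FDR 0.00391), from a mean of 2.19 ± 0.671 CPM (SD, n = 2) to 8.51 ± 2.31 CPM (SD, n = 3). This call was lost when any 1 control or early stage line was left out (FDR 0.00743 to 0.0362) and with limma-voom (FDR 0.00552), while the log2 fold change stayed between 1.69 and 2.27. In the late stage the log2 fold change was 1.01 (SE 0.35, FDR 0.0654), which did not pass.

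KIF7 (gene 374654, hg19 chr15:90152020-90206317, minus strand), a kinesin that organizes the tip of the cilium and binds GLI factors, stood at 8.71 and 7.32 CPM in the drug naive and DMSO lines. It stood at 18.3, 34.3 and 25.3 CPM in the 10, 15 and 25 nM lines and at 6.53 and 4.03 CPM in the 50 and 200 nM lines. The early stage lines were all above the controls and the late stage lines all below them. The early stage log2 fold change was 1.68 (SE 0.31) with an FDR of 0.0055, just outside the threshold of 0.005. The late stage log2 fold change was -0.59 (SE 0.34, FDR 0.223). Between stages KIF7 differed by -2.27 (SE 0.32, FDR 0.0172), and 14671 of 14899 genes had a higher value there. KIF7 overlaps TICRR, a replication gene on the opposite strand, over 22268 bases, and the strand setting of the counting is not given in the sources used here. TICRR stood at 75.9 and 83.7 CPM in controls, at 75.1, 105 and 94.8 CPM in the early stage and at 56.3 and 53.6 CPM in the late stage, with a log2 fold change of 0.18 (FDR 0.309) in the early stage and -0.71 (FDR 0.0251) between stages. Its part in the KIF7 counts was not tested.

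SUFU (gene 51684, hg19 chr10:104263729-104393292, plus strand), which binds GLI factors and holds them inactive, was the steadiest member. It stood at 14.8 and 13.7 CPM in the drug naive and DMSO lines, at 15.2, 13.6 and 15.4 CPM in the 10, 15 and 25 nM lines, and at 16.8 and 16.3 CPM in the 50 and 200 nM lines. Early stage lines overlapped the controls and both late stage lines were above them. The log2 fold change was 0.03 (SE 0.13, FDR 0.853) in the early stage and 0.22 (SE 0.14, FDR 0.275) in the late stage.

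No GLI gene passed the test with a rise beside SMO, and of the 3 only GLI1 was high enough to test. GLI1 (gene 2735, hg19 chr12:57853568-57866051, plus strand), the activator that is itself a target of the pathway, stood at 2.38 and 2.29 CPM in the drug naive and DMSO lines. In the DasR lines it stood at 1.01, 1.22 and 1.5 CPM at 10, 15 and 25 nM and at 2.16 and 1.07 CPM at 50 and 200 nM, so that all 5 DasR lines were below both controls. The counts behind these values were low, from 23 to 55 per library. The log2 fold change was -0.93 (SE 0.36, FDR 0.0751) in the early stage and -0.52 (SE 0.40, FDR 0.356) in the late stage, and neither passed the threshold. The late stage value was -1.12 without the 50 nM line and -0.10 without the 200 nM line, so its size depended on single lines. GLI2 (gene 2736), the main activator at the start of a response, had 1 count in the drug naive line, 1 in the 50 nM line and 0 elsewhere. GLI3 (gene 2737), the main repressor, had 6 counts in the 15 nM line and at most 3 in any other. Both were too low to test, and no change in either was detectable at this depth.

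**Figure D3:**
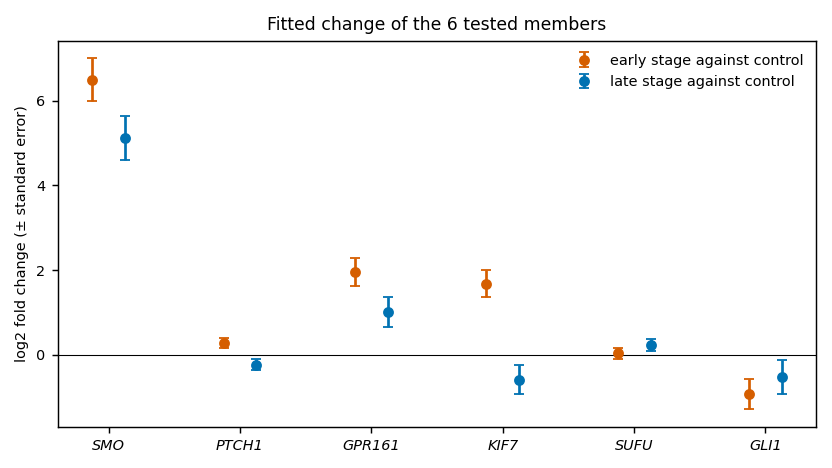
Fitted log2 fold change (vertical axis, bars are standard errors) of the 6 tested Hedgehog pathway genes in the early stage and the late stage, each against the 2 control lines. SMO, chosen by this difference and not tested, stands at 6.50 and 5.12, GPR161 and KIF7 are near 2 in the early stage, PTCH1 and SUFU lie near 0, and GLI1 is below 0 in both.

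In all, 6 of the 9 members passed the filter of at least 1 CPM in at least 2 libraries. Of the 5 tested members other than SMO, GPR161 passed the threshold in the early stage and none fell. Of all genes tested, 14.3% passed in the early stage, 6.32% higher and 7.95% lower. In the late stage none of the 5 passed with edgeR, DESeq2 or limma-voom. GPR161 alone had an unadjusted edgeR p below 0.05, or 1 of the 5 beside 6272 of all 14899 genes. Of all genes tested, 5.52% passed in the late stage with edgeR, 2.5% higher and 3.02% lower. DESeq2 called 2874 genes there and limma-voom 776. Both stages share the 2 control lines. Early stage lines did not overlap the controls for 4 of the 5 members, beside 67.1% of all genes tested, and late stage lines did not for all 5, beside 65.8%. At such a background, a lack of overlap alone says little about a gene.

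Between late and early stages none of the 5 tested members other than SMO passed the threshold (edgeR), and neither did any other gene tested (0% of 14899, smallest FDR 0.0172). At an unadjusted p below 0.05 there were 3 of the 5 members and 4730 of all genes, DESeq2 called 1 of them, KIF7, and 1410 genes, and limma-voom called none. At an FDR below 0.05, PTCH1 and KIF7 were lower in the late stage, beside 5.44% of all genes tested. The 2 stages did not overlap for 4 of the 5 members, beside 51.2% of all genes. PTCH1 and KIF7 were above both controls in every early stage line and below both in every late stage line, a pattern held by 2.02% of all genes tested and counted here after the values were seen.

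To compare levels between genes, mean CPM was divided by the length of annotated exons (CPM per kb). In controls the order of levels was PTCH1 at 2.59 ± 0.126, SUFU at 2.14 ± 0.119, KIF7 at 1.69 ± 0.208, GLI1 at 0.588 ± 0.0164, GPR161 at 0.236 ± 0.0722 and SMO at 0.0568 ± 0.0212 CPM per kb (SD, n = 2). In the early stage KIF7 at 5.49 ± 1.7 and SMO at 5.24 ± 1.36 CPM per kb (SD, n = 3) came before PTCH1 at 3.18 ± 0.27, and the levels of KIF7 and SMO did not differ beyond their spread. In the late stage SUFU at 2.48 ± 0.053, PTCH1 at 2.17 ± 0.15 and SMO at 1.97 ± 0.88 CPM per kb (SD, n = 2) were the highest, and PTCH1 and SMO did not differ beyond their spread. GLI1 was the lowest of the 6 in both DasR stages, at 0.312 ± 0.0617 CPM per kb in the early and 0.406 ± 0.195 CPM per kb in the late stage. In the late stage GPR161, at 0.471 ± 0.123 CPM per kb, and GLI1 did not differ beyond their spread. SMO thus went from the sixth place in controls to the second in the early stage and the third in the late stage.

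Over the 7 lines, Pearson's r of log2 CPM with SMO was 0.9166 for GPR161, 0.5421 for KIF7, 0.3895 for PTCH1, 0.3182 for SUFU and -0.7278 for GLI1, given as a description of 7 points that share libraries and fall into 3 groups. Of 10855 genes compared, the closest in pattern to SMO were CMTM7 (0.9965), RBM4 (0.9963), NEFH (0.9951), HSPA1A (0.9938) and PARD3 (0.993). CMTM7, which encodes a MARVEL domain membrane protein, had 2 and 1 counts in controls and stood at 26.5, 37.7, 25.6, 11.4 and 8.38 CPM from 10 to 200 nM. NEFH, a neurofilament gene, stood at 4.71 and 4.33 CPM in controls and between 17.3 and 31.6 CPM in DasR lines. PARD3, a cell polarity gene, stood at 19.0 and 14.9 CPM in controls and between 52.6 and 74.4 CPM in DasR lines. RBM4, an RNA-binding protein gene, moved much less, from 51.3 and 50.1 CPM in controls to between 63.8 and 75.9 CPM. HSPA1A, a heat shock protein gene with a near-identical copy with which it may share reads, stood at 82.6 and 66.2 CPM in controls and between 262 and 566 CPM in DasR lines.

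The rest of the pathway was examined in 5 lists of 126 genes, of which 99 were tested. In the early stage 3 rose and 10 fell, or 13.1% of those tested beside 14.3% of all genes. In the late stage 1 rose and 2 fell, or 3.03% beside 5.52%. Between stages none of the 99 passed with edgeR or limma-voom. At an unadjusted edgeR p below 0.05 there were 43, beside 4730 of all 14899 genes. DESeq2 called 14, beside 1410 of all genes. Of the calls, CEP164 in the early stage was kept under all 14 alternatives and NKX2-2 in the early stage under the 13 that tested it, which leave out the minimum of 10 CPM. Each other call was lost under at least 1, always including a fit without 1 control line. NKX2-2 passed the filter only through the DasR lines, where it was high, so its calls are descriptive.

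**Figure D4:**
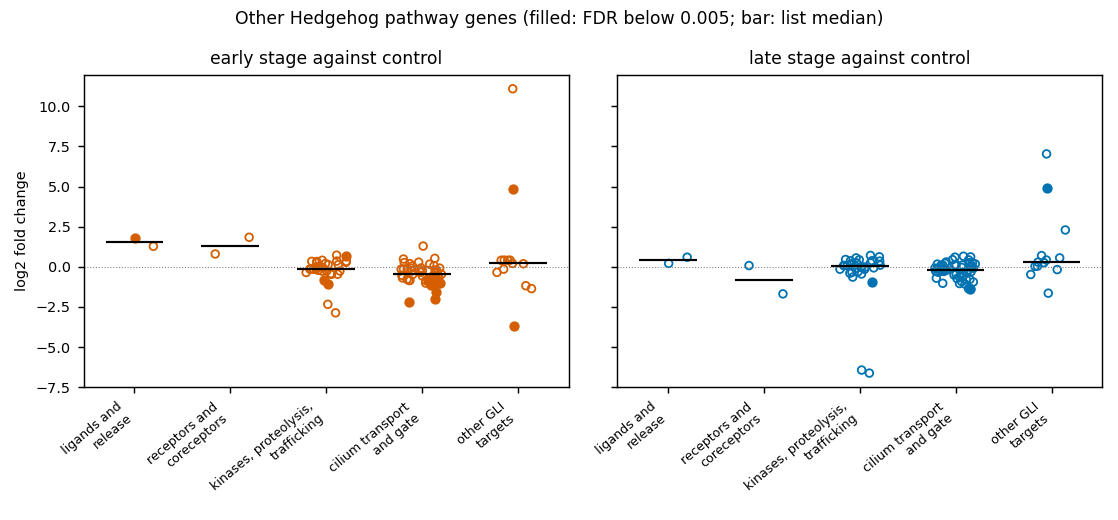
Fitted log2 fold change against control (vertical axis) of the 99 tested genes in 5 lists of other Hedgehog pathway genes (horizontal axis), in the early stage (left) and the late stage (right). Each circle is 1 gene, filled where the FDR is below 0.005, and bars are list medians. Of 51 genes for cilium transport and gate, 7 fell in the early stage and 1 fell in the late stage, and the topmost circle in each panel is SPP1, whose controls held 0 counts, so that its height is no measure of a fold.

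Among ligands, DHH, the Desert hedgehog gene, rose in the early stage. It stood at 1.95 and 1.25 CPM in the drug naive and DMSO lines, at 5.11, 5.67 and 5.93 CPM in the 10, 15 and 25 nM lines, and at 1.87 and 1.81 CPM in the 50 and 200 nM lines. The early stage lines stood apart while the late stage lines lay within the range of the controls. The log2 fold change was 1.78 (SE 0.28, FDR 0.00285) in the early stage, 0.21 (SE 0.30, FDR 0.62) in the late stage and -1.57 (SE 0.27, FDR 0.0207) between stages. SHH and IHH had at most 3 and 4 counts in any library. DISP2, a paralog of the ligand release gene DISP1, had an early stage log2 fold change of 1.28 (FDR 0.0573), and DISP1 itself had at most 10 counts. Of the 7 ligand and release genes 2 were tested.

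Of 8 further receptors and coreceptors 2 were tested and none passed. LRP2, an endocytic coreceptor, stood at 1.62 CPM in each control, at 2.73, 8.33 and 6.63 CPM in the early stage and at 0.624 and 0.371 CPM in the late stage. LRP2 thus showed the same order of groups as KIF7, and the late stage differed from the early stage by -3.53 (FDR 0.0184). CDON, BOC and GAS1, coreceptors for ligands, had at most 15, 1 and 7 counts, and the glypican gene GPC6 stood at 0.672 and 2.27 CPM in the 50 and 200 nM lines and at most 0.299 CPM elsewhere.

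Of 31 tested genes for kinases, proteolysis and trafficking that act on SMO or GLI, 1 rose and 2 fell in the early stage, beside 6.32% higher and 7.95% lower of all genes, and 1 fell in the late stage, beside 3.02%. The median log2 fold change was -0.11 and 0.07, beside -0.01 in each stage for all genes. GRK2, the kinase that phosphorylates active SMO, stood at 181 and 193 CPM in controls, at 111, 98.9 and 104 CPM in the early stage and at 136 and 164 CPM in the late stage, and fell in the early stage (log2 fold change -0.85, FDR 0.00123). CSNK1E, a casein kinase 1 gene, fell in the early stage (-1.06, FDR 0.00312), and CUL1, a ubiquitin ligase scaffold used in GLI processing, rose (0.69, FDR 0.00194). ITCH, a ubiquitin ligase that acts on GLI1, fell in the late stage (-0.92, FDR 0.00176). The most abundant genes of the list by CPM were CSNK1A1, CUL1 and PRKAR1A, and the early stage log2 fold change was -0.35 (FDR 0.00949) for CSNK1A1 and -0.26 (FDR 0.0508) for PRKAR1A.

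EVC and EVC2, a pair of neighboring genes whose proteins form the complex that carries the signal from SMO at the base of the cilium, had the lowest fitted values of that list, although neither passed the threshold. They were named after their values were seen. EVC stood at 12.1 and 12.4 CPM in the drug naive and DMSO lines, at 0.611, 3.16 and 1.3 CPM in the 10, 15 and 25 nM lines, at 0.240 CPM in the 50 nM line and at 0 in the 200 nM line. EVC2 stood at 2.48 and 2.54 CPM in controls, at 0.036, 1.01 and 0.449 CPM in the early stage, at 0.048 CPM in the 50 nM line and at 0 in the 200 nM line. All DasR lines were below both controls for both genes, in the opposite direction to SMO. The early stage FDR was 0.0121 for EVC and 0.0505 for EVC2, and the late stage FDR was 0.00521 and 0.0161. Of the DasR lines only the 15 nM line reached 1 CPM for EVC2. EVC2 thus passed the filter only through the controls, where it was high, and its FDRs are descriptive. CRMP1, which overlaps EVC on the opposite strand over 66222 bases, had 48 and 54 counts in controls, 24, 157 and 46 in the early stage, 7 in the 50 nM line and 0 in the 200 nM line, and its part in the EVC counts was not tested.

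**Figure D5:**
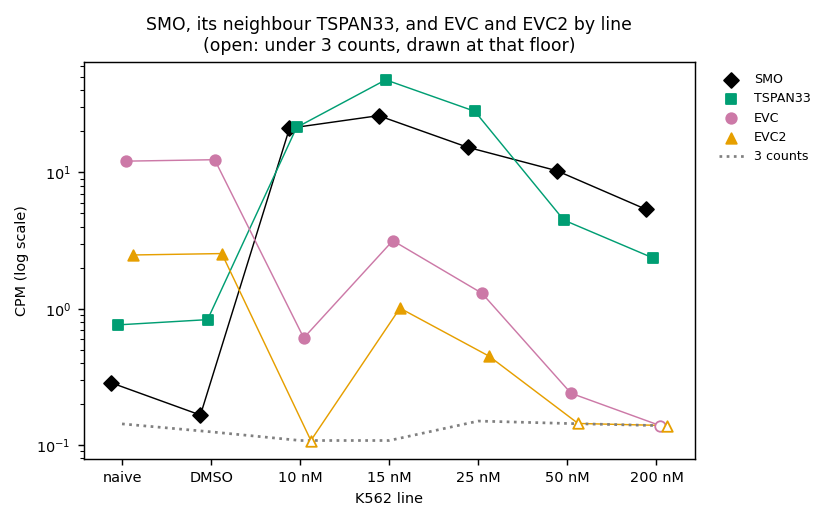
CPM on a log scale (vertical axis) of SMO, its neighbor TSPAN33, EVC and EVC2 in each of the 7 K562 lines (horizontal axis), 1 library per point. Open symbols are values under 3 counts, drawn at that floor (dotted line). SMO and TSPAN33 are higher and EVC and EVC2 lower in every DasR line than in both controls.

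The primary cilium is the organelle in which vertebrate SMO signals, and 51 of 52 listed genes for its transport and gate were tested. In the early stage 7 fell and none rose, or 13.7% of those tested, beside the 7.95% of all genes that fell, and the median log2 fold change was -0.47 beside -0.01 for all genes. In the late stage 1 fell, or 1.96% of those tested, beside 3.02% of all genes, and the median was -0.20, beside -0.01. CEP164, a distal appendage protein needed to build a cilium, stood at 74.3 and 72.5 CPM in controls, at 25.5, 24.0 and 24.1 CPM in the early stage and at 27.7 and 28.8 CPM in the late stage. It fell in the DasR lines of both stages, early (log2 fold change -1.59, SE 0.09, FDR 0.000112) and late (-1.37, SE 0.10, FDR 0.000645). The others that fell in the early stage were the intraflagellar transport genes IFT20 (-1.03), IFT140 (-1.06), IFT70A (-2.21) and IFT70B (-2.02) and the BBSome genes BBS1 (-0.78) and BBS2 (-1.11). BBS1 was named to complete the count, after its value was seen. IFT70A and IFT70B are near-identical copies that may share reads, so their separate values are uncertain. Of the most abundant genes of the list, the early stage log2 fold change was -0.47 for BBS5 (FDR 0.0313), 0.20 for OFD1 (FDR 0.107) and 0.07 for TTC21B (FDR 0.523).

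Of 27 other genes reported as GLI targets in some tissues, 13 were tested. In the early stage 1 rose and 1 fell, near the 6.32% higher and 7.95% lower of all genes, and in the late stage 1 rose, beside 2.5%. NKX2-2, a homeobox gene of the ventral neural tube, stood at 0.143 and 0.166 CPM in controls, which were 3 and 4 counts, at 4.42, 4.99 and 4.44 CPM in the early stage and at 5.23 and 4.12 CPM in the late stage. It rose in both, with a log2 fold change of 4.84 (SE 0.32, FDR 0.00017) and 4.88 (SE 0.33, FDR 0.000441). Both controls were below 1 CPM, so NKX2-2 passed the filter only through the DasR lines, where it was high. These FDRs are therefore descriptive, and NKX2-2 is the 1 gene counted as rising in each stage. The groups of DasR lines overlapped, so NKX2-2 lacked the lower late stage level of SMO (late against early stage 0.04, SE 0.22, FDR 0.912). HES1, a repressor also driven by Notch, stood at 28.1 and 25.5 CPM in controls, at 1.69, 1.54 and 3.19 CPM in the early stage and at 4.75 and 12.3 CPM in the late stage, and fell in the early stage (-3.68, SE 0.45, FDR 0.00119). SPP1 and CCND1 were named after their values were seen. SPP1 had 0 counts in both controls and stood at 3.20, 17.9, 14.4, 1.34 and 0.0463 CPM from 10 to 200 nM (early stage FDR 0.00913, not past the threshold). SPP1 also passed the filter only through the DasR lines, where it was high, so this FDR is descriptive. CCND1, the cyclin D1 gene, stood at 17.3 and 13.3 CPM in controls, at 2.37, 1.29 and 15.0 CPM in the early stage and at 43.2 and 106 CPM in the late stage, with wide spread in both. The abundant genes CDK6, CCND2 and BMI1 had early stage log2 fold changes of 0.41, -0.14 and 0.19 (FDR 0.0286, 0.414 and 0.167).

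Erythroid markers, the lineage of the K562 label, were examined beside SMO, since several of them were higher in the early stage. The line is labelled erythroblast, and all 14 listed erythroid markers were detected, with HBG2, a fetal globin gene, the most abundant by CPM. Their summed level was 4359 and 3961 CPM in the drug naive and DMSO lines, 12640, 14210 and 11090 CPM in the 10, 15 and 25 nM lines, and 7190 and 5152 CPM in the 50 and 200 nM lines. The sum was therefore highest at 15 nM and lower in the late stage, the order of lines also seen for SMO except that the sum at 200 nM was closer to controls. Globins made up most of this sum. EPOR, TFRC, HBG1, HBA1 and HBA2 rose in the early stage, or 5 of 14 beside 6.32% of all genes, and TFRC rose in the late stage, or 1 of 14 beside 2.5%. Since the markers were examined for their higher early stage levels, the early stage count and calls are descriptive. The TFRC early stage call was kept under all 14 alternatives, while its late stage call was lost under 8, the HBA1 call under 6, the HBG1 and HBA2 calls under 5 each and the EPOR call under 3. In every early stage line 12 of the 14 were above both controls, and 0 were below both in every line. Of all genes tested, 67.1% did not overlap when both directions are counted, and the share above the controls alone is not given here. GATA1, NFE2, KLF1 and TAL1 were named after their values were seen. GATA1, the main erythroid transcription factor, did not follow this course, with 201 and 217 CPM in controls, 165, 206 and 191 CPM in the early stage and 235 and 295 CPM in the late stage. NFE2, another erythroid transcription factor, was above both controls in every early stage line and highest in the 200 nM line, at 192 CPM. The transcription factors KLF1 and TAL1 were also above both controls in every early stage line. KLF1 stood at 66.2 and 58.9 CPM in controls, at 112, 98.4 and 88.5 CPM in the early stage and at 82.6 and 81.1 CPM in the late stage. TAL1 stood at 199 and 215, then 302, 326 and 302, then 229 and 156 CPM. Neither passed the threshold in either stage. HBG1 and HBG2, and HBA1 and HBA2, are near-identical copies that may share reads. The part of these markers in the Hedgehog pathway values was not tested.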

How the data were processed

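Raw read counts per gene were deposited by the authors for 7 libraries (paired-end, directional kit with ribosomal RNA depletion), made by alignment to hg19 with STAR and counting with featureCounts, whose versions and strand setting are not given in the sources used here. The authors' tables of their own comparisons were used only for gene symbols and, as other deposited values, gene lengths in bases. Their fold changes and p-values were not used.

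The 14899 genes that reached 1 CPM in 2 or more libraries were fitted in edgeR 4.0.16 (R 4.3.3) by quasi-likelihood with TMM scaling and 1 coefficient per group over all 7 libraries (common dispersion 0.036), with Benjamini-Hochberg FDR and a threshold of 0.005. The study's minimum of 10 CPM would leave out low members and was an alternative, as were no filter, other scalings, DESeq2 1.42.0, limma-voom 3.58.1, the 2 groups alone, an FDR of 0.05 and leaving out each library. CPM used library totals. Exon lengths and hg19 positions came from GENCODE v44lift37, and gene symbols were found for 23738 of 25702 IDs. Scripts were tested on simulated data. The members and gene lists were chosen with earlier results of these data known. Named were all members, list genes past the threshold (at most 6 per list and comparison) or most abundant (at most 3 per list), list genes too low to test, the 10 counted genes on each side of SMO and the 5 most like SMO, with exceptions stated. The values of 1 tested gene of the receptor list are not reported here. Library pairs of a group differed beyond sampling noise (chi-square per degree of freedom 14.5 to 45).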

Additional observations from a re-analysis of the deposited data

Results flagged for a closer look

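PTCH1 and KIF7 drew attention since every early stage line was above both controls and every late stage line below them. The log2 fold change between late and early stage was -0.5247 for PTCH1 (edgeR FDR 0.0365) and -2.2709 for KIF7 (FDR 0.0172), neither past 0.005. With DESeq2 the FDR was 0.00735 for PTCH1 and 2.78e-10 for KIF7. TICRR, which overlaps KIF7, had -0.71 in the same comparison (FDR 0.0251), and no cause was tested.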

How the results depend on the processing

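The counts of calls are small and most moved with the settings. Of the 5 tested members other than SMO, 1 passed in the early stage. The count was 0 of 3 with a minimum of 10 CPM, where GPR161 was not tested, 2 of 8 with no filter, and of the 5 it was 0 with limma-voom, 2 with DESeq2, the 2 groups alone or an FDR of 0.05, and 0 to 2 with 1 library left out. In the late stage the count was 0 under every alternative run. Between stages, with SMO counted although its values entered its choice, it was 0, and 1 of 9 with no filter, 2 with DESeq2 and 3 with an FDR of 0.05. For the 99 other pathway genes the early stage count of 13 became 31 with DESeq2 (4202 of all 14899 genes), 41 with an FDR of 0.05 (6112 of all genes) and 2 to 16 with 1 library left out. The late stage count of 3 became 5 of 125 tested with no filter (1287 of all genes), 18 with DESeq2 (2874 of all genes), 24 with an FDR of 0.05 (4306 of all genes) and 0 to 5 with 1 library left out. Between stages it was 1 of 125 with no filter (295 of all genes), 14 with DESeq2 (1410 of all genes) and 16 with an FDR of 0.05 (1713 of all genes). Leaving out a control line leaves that group with 1 library, whose spread is then assumed to be that of the other groups, and all calls in the early stage fell from 2126 to 189 without the drug naive line and 469 without the DMSO line. The causes of the other shifts were not tested. Of the members' single values, 2 reversed, both far from the threshold: SUFU in the early stage to -0.046 without the DMSO line (at most 0.13 with another library left out) and GLI1 between stages to -0.18 without the 50 nM line (at most 0.83). Among the printed list genes with a call (alternatives were not run for the others), uncalled values of DHH and ITGA2B in the late stage and of NKX2-2, CUL1 and BBS2 between stages changed sign under at least 1 alternative. KIF7 in the early stage passed under 6 of 14 alternatives. No paired analysis was possible because the labels give the lines no replicate numbers, and the numbers used here only name the lines within a group. A planned alignment of the GLI proteins was not run.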

Other observations

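Markers of lineages other than the erythroid one had lower summed levels in every line. The megakaryocyte, lymphoid and monocyte sums were each lowest at 15 nM and highest at 200 nM, and the epithelial and stromal fibroblast sums were not. ITGA2B, an integrin gene of the megakaryocyte lineage, stood at 63.9 and 52.5 CPM in controls, at 13.4, 5.96 and 13.2 CPM in the early stage (log2 fold change -2.44, edgeR FDR 0.00269) and at 56.8 and 99.2 CPM in the late stage. VWF, another gene of that list, stood at 0.666 and 0.291 CPM in controls and was highest at 10 nM, at 37 CPM (early stage FDR 0.0139). At 15 and 25 nM it stood at 3.88 and 7.93 CPM. VWF passed the filter only through the DasR lines, where it was high, so its FDR is descriptive. PTPRC, the pan-leukocyte antigen CD45, stood at 174 and 195 CPM in controls, at 11.2, 0.898 and 103 CPM in the 10, 15 and 25 nM lines and at 305 and 333 CPM in the 50 and 200 nM lines, so that the 25 nM line differed from its group (early stage FDR 0.179). The summed lymphoid list followed it, from 8.619 CPM at 15 nM to 366.9 CPM at 200 nM. The monocyte list sum ran from 43.56 to 146.9 CPM, the epithelial list sum from 109.6 to 196.2 CPM and the stromal fibroblast list sum from 6.253 to 19.8 CPM. The megakaryocyte list sum ran from 20.36 CPM at 15 nM to 113.5 CPM at 200 nM. GP1BB, GP9, PF4, CD2, MS4A1, CDH1, KRT5 and KRT14, which define these lineages, had at most 3 counts in any library.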
